A study of Mus musculus with 6 samples.

Results

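Resident macrophage surface markers are a set of 10 genes whose proteins are used to tell macrophages that live long term in a tissue from cells that entered it recently. The set was fixed by gene symbol (Adgre1, Folr2, Lyve1, Timd4, Cd163, Vsig4, Mrc1, Stab1, Cd68 and Cd5l), and each of the 10 was found once among the 55487 genes of the deposited count table. They were compared between macrophages grown from the mouse bone marrow cells called TpMos (TpMo-derived, 3 libraries) and those grown from mature Ly6Chi monocytes (Ly6Chi-derived, 3 libraries). Per the labels, both cell types were sorted from marrow, kept in medium with CSF-1, the growth factor on which macrophages depend, and scraped off after 7 days. The mouse strain, age and sex, the CSF-1 concentration of each culture, and whether the replicates came from separate animals or cultures are details that the sources used here leave out. The p-values therefore measure only the spread between these libraries, which may be technical. Both groups are cells grown in a dish, so no tissue that would shape a resident macrophage was present.

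Tissue macrophages settle before or after birth and are kept alive by CSF-1 and by signals from the tissue around them. The adhesion receptor F4/80, made from Adgre1, and the lysosomal glycoprotein CD68 are carried by most mouse macrophages. The folate receptor Folr2, the hyaluronan receptor Lyve1 and the phosphatidylserine receptor Timd4, which binds dying cells, mark long-lived resident subsets in many organs. CD163, which takes up haptoglobin with haemoglobin, the complement receptor Vsig4, the mannose receptor Mrc1 (CD206) and the scavenger receptor stabilin-1 (Stab1) clear material from blood and tissue. Cd5l differs from the rest because its product is secreted. CD68 also lies mainly inside the cell, so that 2 of the 10 are not surface proteins in the strict sense.

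Of the 10 genes, 5 were higher in TpMo-derived macrophages, 0 were lower, 2 were tested and did not pass, and 3 had too few counts to test. The 5 were Cd5l, Cd163, Mrc1, Adgre1 and Stab1, whereas Cd68 and Folr2 did not pass and Lyve1, Timd4 and Vsig4 were near or at 0. Calls are those of the edgeR quasi-likelihood test over 13140 genes at a Benjamini-Hochberg adjusted p under 0.05. Over all genes tested, 6.54% were called higher and 5.79% lower. Of the 5, 4 changed by at least 2-fold (all but Stab1), as did 2.21% of all genes tested in this direction. DESeq2 called 6 members higher, Vsig4 being the addition, against 8.14% of the genes it tested. At an unadjusted p under 0.05 edgeR placed 7 members higher and 0 lower, where 12.3% of all genes tested were higher at that threshold, and 0 members were lower by DESeq2 or limma-voom at either threshold. For each of the 7 members tested, every TpMo-derived library lay above every Ly6Chi-derived library, which held in this direction for 15.3% of the genes tested. The members tested had a median log2 fold change of 1.20, against 0.01 over all genes tested. The members were chosen as a group with earlier results of these data known, so neither count is independent evidence of a direction.

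The 6 libraries held 23765773 to 33042094 counts on genes, and no library was a copy of another. Both groups carried transcripts that define macrophages: 8 of 8 such markers were detected, with summed levels of 28425 to 31121 CPM (counts relative to library size, scaled by the edgeR TMM factors) in TpMo-derived and 25167 to 27978 CPM in Ly6Chi-derived libraries. Mitochondrial transcripts took 1.45 to 1.51% of the counts of TpMo-derived libraries, against 1.20 to 1.35% of the others, and their part in the results was not tested. These are bulk libraries, in which fewer cells carrying a transcript and less of it per cell cannot be told apart.

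On a scale that allows genes to be compared (TPM, counts divided by exon length and scaled to the same sum in each library), the members spread from the most abundant transcripts to none. Cd68 led in both groups, at 7055 ± 274 TPM (SD, n = 3) in TpMo-derived and 6757 ± 172 TPM in Ly6Chi-derived macrophages, and held rank 15 of all genes in each. Adgre1 came next, at 4100 ± 515 TPM and 1872 ± 17.4 TPM. It moved from rank 47 in Ly6Chi-derived to rank 24 in TpMo-derived macrophages. Below these 2 genes the order differed. In TpMo-derived macrophages Cd5l stood at 876 ± 48.2 TPM, above Stab1 at 397 ± 18.1 TPM and Mrc1 at 363 ± 54.1 TPM, whose libraries overlapped, and then Folr2 at 106 ± 4.81 TPM. In Ly6Chi-derived macrophages Stab1 came next at 284 ± 4.03 TPM, then Mrc1 at 150 ± 18.9 TPM. Cd5l at 112 ± 48.1 TPM and Folr2 at 89.2 ± 6.02 TPM followed, where Cd5l overlapped both of its neighbours over the 3 libraries. The place of Folr2 depends on the exon length used: over only the bases it shares with no other gene it stood at 242 TPM in Ly6Chi-derived macrophages, between Stab1 and Mrc1, and at 288 TPM in TpMo-derived ones, still under Mrc1. Cd163 was far lower, at 3.87 ± 1.14 TPM and 1.26 ± 0.564 TPM, and Vsig4, Lyve1 and Timd4 lay under it in both groups.

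**Figure D1:**
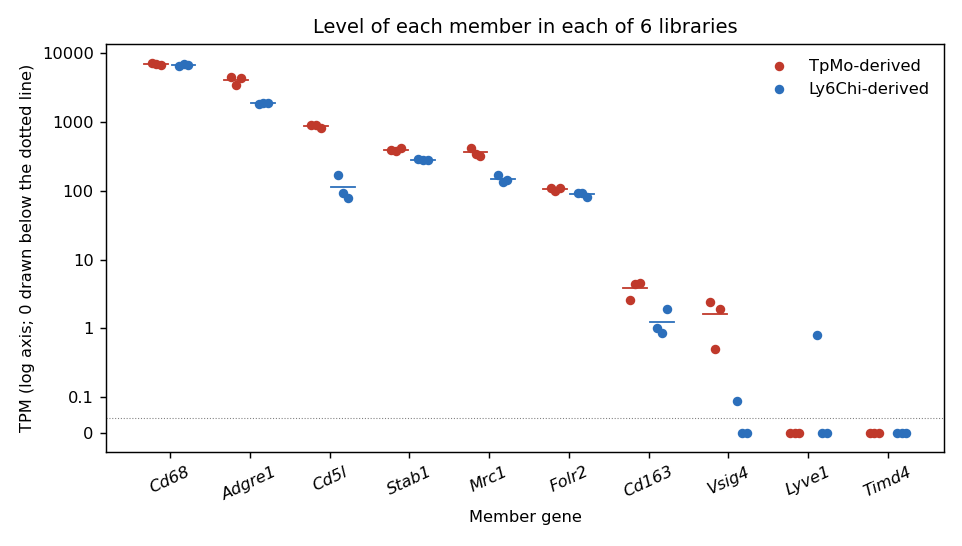
TPM of each member (log axis, 0 drawn under the dotted line) in the 3 TpMo-derived (red) and 3 Ly6Chi-derived (blue) libraries, with a bar at the group mean where no library is at 0. Cd68 is close to level between the groups (7055 against 6757 TPM), Cd5l shows the widest gap among the abundant members (876 against 112 TPM), and Timd4 is at 0 in every library.

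The stretch of 250 bases before the start of transcription is shown for the 4 members that rose and have a window, and for Cd68, which did not pass. RefSeq windows on GRCm38.p6 were available for 8 of the 10 members. Capitals mark the core bound by PU.1, the factor on which macrophage identity depends (GAGGAA, or TTCCTC on the other strand), and the half-site of MAF factors, which act in mature macrophages (TGCTGA, or TCAGCA on the other strand). The windows are read 5′ to 3′ along each gene's own strand, from RefSeq's start site, which for Mrc1 lies inside the gene as the count table has it.
Cd5l (chr3:87357631-87357880, plus strand): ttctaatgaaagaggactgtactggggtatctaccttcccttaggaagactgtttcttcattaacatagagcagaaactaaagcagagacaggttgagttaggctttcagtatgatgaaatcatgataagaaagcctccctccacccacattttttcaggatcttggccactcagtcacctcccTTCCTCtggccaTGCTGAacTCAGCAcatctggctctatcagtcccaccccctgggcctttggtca
Mrc1 (chr2:14229164-14229413, plus strand): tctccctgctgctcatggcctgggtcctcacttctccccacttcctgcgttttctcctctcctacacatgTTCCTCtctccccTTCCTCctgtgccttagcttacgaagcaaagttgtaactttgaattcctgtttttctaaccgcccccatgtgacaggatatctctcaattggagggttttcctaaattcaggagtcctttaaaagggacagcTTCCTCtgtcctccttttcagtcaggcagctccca
Stab1 (chr14:31168642-31168891, minus strand): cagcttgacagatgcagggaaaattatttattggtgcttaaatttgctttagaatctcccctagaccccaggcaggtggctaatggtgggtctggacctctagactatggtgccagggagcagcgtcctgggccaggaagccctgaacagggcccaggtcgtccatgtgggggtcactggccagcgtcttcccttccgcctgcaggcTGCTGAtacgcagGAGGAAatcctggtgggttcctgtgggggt
Cd163 (chr6:124304401-124304650, plus strand): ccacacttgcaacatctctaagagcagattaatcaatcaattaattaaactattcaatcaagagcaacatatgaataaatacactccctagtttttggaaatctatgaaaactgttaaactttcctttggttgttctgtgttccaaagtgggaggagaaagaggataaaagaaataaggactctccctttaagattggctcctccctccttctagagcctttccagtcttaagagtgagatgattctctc
Cd68 (chr11:69666171-69666420, minus strand): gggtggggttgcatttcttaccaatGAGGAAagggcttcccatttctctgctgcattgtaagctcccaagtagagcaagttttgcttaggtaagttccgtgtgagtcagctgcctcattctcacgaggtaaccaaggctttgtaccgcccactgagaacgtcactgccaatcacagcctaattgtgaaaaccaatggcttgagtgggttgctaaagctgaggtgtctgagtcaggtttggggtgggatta
The Mrc1 window held 3 PU.1 cores, and the windows of Cd5l, Stab1 and Cd68 held 1 each. The Cd5l window also held 2 MAF half-sites, in opposite orientations and close together, and the Stab1 window held 1. The Cd163 window held 0 of either motif. Folr2, which like Cd68 did not pass, had 2 windows that are not shown, each with 1 MAF half-site and 0 PU.1 cores. Over the 8 members with a window, 5 held the PU.1 core (Cd5l, Cd68, Mrc1, Stab1 and Vsig4), against 23.3% of 32851 windows of the same length. The MAF half-site was in 4 of 8 (Cd5l, Folr2, Stab1 and Timd4, the last of which had no counts), against 16.1%. Members were counted once each, Folr2 with 2 windows, whereas these shares are per window. A link between motifs and the changes in level was not tested. The PU.1 core and the MAF half-site did not overlap in any of these windows. A match describes letters only and is not evidence that a factor binds.

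Adgre1 (ENSMUSG00000004730.15, chromosome 17, 57358691 to 57483527 on GRCm38), the gene of F4/80, stood at 4330, 3398 and 4316 CPM in the TpMo-derived and at 1690, 1765 and 1798 CPM in the Ly6Chi-derived libraries. TpMo-derived replicate 2 was the lowest of its group and still lay well above the highest Ly6Chi-derived library. The log2 fold change was 1.20 ± 0.09 (SE), or 2.29-fold with a 95% interval of 2.01 to 2.62 (edgeR adjusted p = 2.40e-05). The libraries spread more in the TpMo-derived group, with a coefficient of variation of 13.3% against 3.17%.

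Of the endocytic receptors, Mrc1 (ENSMUSG00000026712.3, chromosome 2, 14229392 to 14332057) changed most clearly. It stood at 810, 654 and 631 CPM in the TpMo-derived libraries and at 306, 250 and 271 CPM in the Ly6Chi-derived ones. The lowest TpMo-derived library thus held more than the highest Ly6Chi-derived library, and replicate 1 was the highest in the TpMo-derived group. Mrc1 rose 2.53-fold (95% interval 2.15 to 2.99, log2 fold change 1.34 ± 0.11 SE, edgeR adjusted p = 4.15e-05). Stab1 (ENSMUSG00000042286.13, chromosome 14, 31139013 to 31168641), which takes up modified lipoprotein and matrix fragments, had 1216, 1169 and 1319 CPM against 834, 842 and 859 CPM. The gap was small but the libraries were tight, with coefficients of variation of 6.21% and 1.52%. Stab1 rose 1.46-fold (log2 fold change 0.55 ± 0.06 SE, 95% interval 0.42 to 0.68 on the log2 scale, edgeR adjusted p = 2.39e-04), and its call was not kept in a test against a 1.5-fold change (adjusted p = 1.00).

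Cd163 (ENSMUSG00000008845.9, chromosome 6, 124304656 to 124330527) was scarce, with 136, 196 and 178 counts in the TpMo-derived libraries and 43, 37 and 98 in the Ly6Chi-derived ones. As CPM these were 4.17, 7.28 and 7.72 against 1.56, 1.35 and 3.05. Ly6Chi-derived replicate 3 came close to TpMo-derived replicate 1, the lowest of its group. The fold change was 3.20 with a wide interval, from 1.61 to 6.38 (log2 fold change 1.68 ± 0.45 SE, edgeR adjusted p = 0.0350). The call was lost without TpMo-derived replicate 2 or 3 or without Ly6Chi-derived replicate 1 or 2 (adjusted p from 0.0938 to 0.129).

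Cd5l (ENSMUSG00000015854.7, chromosome 3, 87357881 to 87371073), a secreted scavenger receptor protein that inhibits apoptosis of macrophages, had the largest change among the members tested. It stood at 552, 550 and 515 CPM in the TpMo-derived libraries and at 95.6, 55.0 and 46.3 CPM in the Ly6Chi-derived ones. The TpMo-derived libraries were nearly level (coefficient of variation 3.86%), whereas the Ly6Chi-derived ones varied (40.1%), with replicate 1 the highest. Cd5l rose 8.22-fold (95% interval 5.79 to 11.7, log2 fold change 3.04 ± 0.23 SE, edgeR adjusted p = 3.00e-05). In rank by TPM it went from 1324 in Ly6Chi-derived to 120 in TpMo-derived macrophages.

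Cd68 (ENSMUSG00000018774.13, chromosome 11, 69664213 to 69666153) differed little. Its levels were 2769, 2631 and 2639 CPM in TpMo-derived against 2320, 2534 and 2509 CPM in Ly6Chi-derived libraries. The groups did not overlap, but the log2 fold change was only 0.13 ± 0.05 (SE), with a 95% interval of 1.01 to 1.18 for the fold change, and it did not pass (edgeR adjusted p = 0.157).

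Folr2 (ENSMUSG00000032725.10, chromosome 7, 101839988 to 101857194) stood at 50.6, 46.5 and 51.8 CPM against 40.0, 42.1 and 37.4 CPM. The TpMo-derived libraries were again the higher ones without overlap. With a fold change of 1.25 (95% interval 1.03 to 1.51, log2 fold change 0.32 ± 0.13 SE) the gene did not pass (edgeR adjusted p = 0.146). Its level depends on how shared exons are counted. Of the 1546 exon bases of Folr2, 975 (63.1%) are also exon of Gm10602, an antisense gene on the other strand, and by the defaults of the counting program reads on both genes were left out. Counted over the 571 bases that are its own, a choice made after the data were seen, Folr2 stood at 288 ± 13.03 TPM in TpMo-derived and 242 ± 16.3 TPM in Ly6Chi-derived macrophages in place of 106 and 89.2 TPM. Gm10602 itself had 95, 92 and 66 counts against 54, 49 and 49, and since strand was ignored, reads on the shared bases cannot be assigned to either gene. Of the other members only Stab1 shared exon bases with another gene, 112 of 10288 with Nt5dc2.

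The remaining 3 members were at the limit of detection. Vsig4 (ENSMUSG00000044206.3, chromosome X, 96247203 to 96293438) had 35, 6 and 20 counts in the TpMo-derived libraries and 1, 0 and 0 in the Ly6Chi-derived ones. TpMo-derived replicate 2, with 6 counts, held far fewer than the other two. Corrected for library size, the summed counts of 61 against 1 give a ratio of 64.3 with an exact 95% interval of 11.1 to 2581. That interval covers counting error only and leaves out the spread between libraries. It also takes reads as independent, and is too narrow where both mates of a pair were counted. The gene fell short of the count filter. DESeq2 called it higher (adjusted p = 0.00970), whereas edgeR without a filter, which called 4.38% of genes higher, did not (adjusted p = 0.0909), nor did any of the 4 settings without 1 library in which it could be tested (adjusted p from 0.0582 to 0.166). Lyve1 (ENSMUSG00000030787.4, chromosome 7, 110850607 to 110863239) had 18 counts in Ly6Chi-derived replicate 1 and 0 in each of the other 5 libraries. Timd4 (ENSMUSG00000055546.6, chromosome 11, 46810800 to 46844332) had 0 counts in all 6. With reads taken as independent, a count of 0 allows up to 3 counts, or 0.0921 to 0.130 CPM depending on the library. Lower levels were thus not detectable at this depth.

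**Figure D2:**
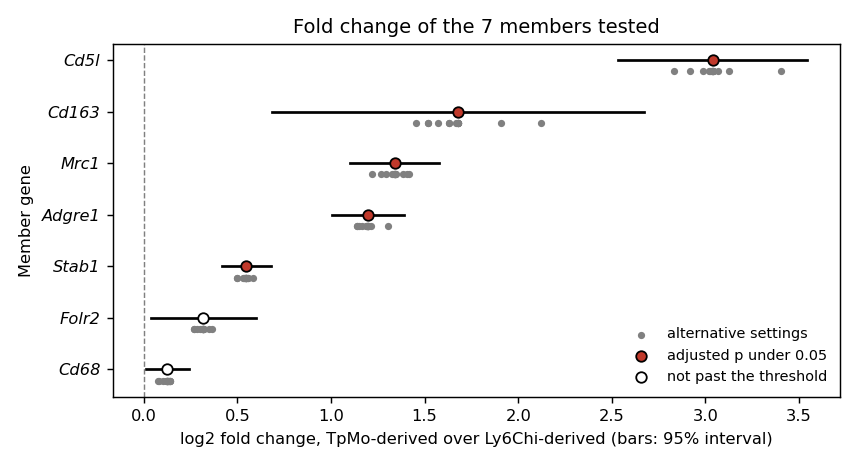
Log2 fold change (TpMo-derived over Ly6Chi-derived) of the 7 members tested, with 95% intervals from the edgeR fit, filled red where the adjusted p was under 0.05, and grey points for the values under other settings. Every value lies above 0, the interval of Cd163 is the widest (0.68 to 2.67) and those of Folr2 and Cd68 start close to 0 (0.04 and 0.01).

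Since Cd68 was nearly level, the members were also expressed per length as a percentage of Cd68 in the same library, which removes the scaling between libraries. Adgre1 amounted to 60.7, 50.1 and 63.5% of Cd68 where the cells came from TpMos, and 28.3, 27.0 and 27.8% where they came from Ly6Chi monocytes. Cd5l came to 12.3, 12.9 and 12.05% against 2.55, 1.34 and 1.14%. Neither gene overlapped between the groups on this scale, nor did Mrc1, Stab1, Folr2, Cd163 or Vsig4. The share over all genes was not computed on it. Since Cd68 was picked for being nearly level in these same data, this is not independent of the CPM values. Mrc1 amounted to 5.13 ± 0.561% against 2.23 ± 0.340% and Stab1 to 5.63 ± 0.410% against 4.21 ± 0.168%, so that Mrc1 was close to Stab1 in TpMo-derived macrophages and well under it in the others. Folr2 was at 1.51 ± 0.081% and 1.32 ± 0.099% over its whole exon length, or 4.08 ± 0.220% and 3.58 ± 0.268% over its unshared bases, and Cd163 at 0.0552 ± 0.0179% and 0.0186 ± 0.0083%.

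**Figure D3:**
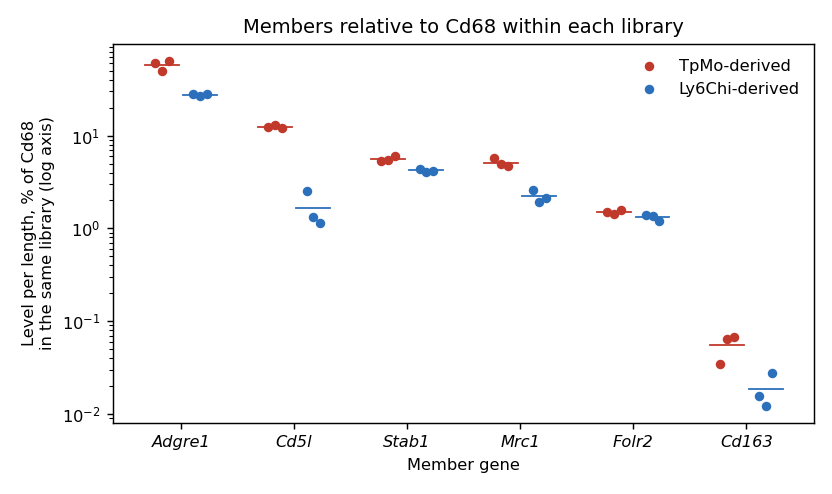
Level per exon length of 6 members as a percentage of Cd68 in the same library (log axis), for the 3 TpMo-derived (red) and 3 Ly6Chi-derived (blue) libraries, with bars at the group means. Adgre1 averages 58.1% against 27.7% and Cd5l 12.4% against 1.67%, while Folr2, drawn over its whole exon length, would lie near 4.08% and 3.58% over its unshared bases.

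Genes with the most similar profile over the 6 libraries were found by the root mean square difference of centred log2 CPM among 8878 genes of at least 5 CPM. They are a description with no test. Adgre1 was closest to the chemokine Cxcl16 (difference 0.087, 324 ± 44.8 against 133 ± 13.8 CPM) and to Rapgef2 (0.090). Stab1 was closest to the transcription factor Maf (0.032, 118 ± 3.78 against 80.5 ± 2.26 CPM) and to the lipase Abhd12 (0.036). The genes nearest to Mrc1 were the cytokine receptor chain Il2rg (0.105) and the lysosomal protease Lgmn (0.113). Cd5l lay nearest to Chac1 (0.086), which degrades glutathione, and to the interferon-induced Ifit2 (0.294). Nearest to Cd163 were Gbp2 (0.257) and Egr1 (0.282), both at a smaller difference than that of Ifit2 from Cd5l. Cd163 itself averaged 6.39 CPM in TpMo-derived and 1.99 CPM in Ly6Chi-derived libraries, and genes under 5 CPM were left out of the comparison.

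Among 25 further genes known from resident macrophages, 16 were tested: 9 were higher, 2 lower and 5 not called. Their median log2 fold change was 0.56. For this list and those below, the shares over all genes tested were 6.54% higher and 5.79% lower. Dab2, an adaptor for endocytosis, averaged 1565 ± 83.0 CPM in TpMo-derived and 873 ± 47.4 CPM in Ly6Chi-derived libraries (log2 fold change 0.84, edgeR adjusted p = 2.77e-05), and the selenium carrier Selenop at 652 ± 56.7 CPM against 319 ± 21.1 CPM (1.03, adjusted p = 3.50e-05). The ubiquitin ligase Wwp1 and the chemokine Pf4 also rose, with log2 fold changes of 0.95 and 2.34. Pf4 is also a gene of platelets, and the platelet marker Ppbp had 100, 28 and 72 counts against 10, 0 and 0, with every TpMo-derived library above (log2 fold change 4.29, edgeR adjusted p = 0.0733, not called). Of the 5 markers in the megakaryocyte and platelet list 3 had no count, and the list summed to 1.11 to 3.12 against 0 to 0.732 CPM. The part of platelets in the level of Pf4 was not tested. The growth factor Igf1 was abundant in both groups, averaging 1463 ± 81.6 CPM and 1277 ± 65.6 CPM, and was not called (adjusted p = 0.0651), although DESeq2 called it (adjusted p = 0.0339). The ficolin Fcna, at 3.58 ± 0.401 against 6.10 ± 0.492 CPM, was not called either.

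Genes of Kupffer cells and splenic macrophages rose in 5 and fell in 2 of 12 tested members of a list of 18. Among them the scavenger receptor Marco averaged 115 ± 35.5 CPM in TpMo-derived and 12.03 ± 1.00 CPM in Ly6Chi-derived libraries (log2 fold change 3.25, edgeR adjusted p = 2.40e-05), and Il18bp, which binds the cytokine IL-18, had a log2 fold change of 1.64. The sialic acid receptor Siglec1 rose as well (log2 fold change 2.37). The fatty acid binding protein Fabp7 fell, to 5.81 ± 0.579 CPM from 26.3 ± 2.10 CPM. The haem oxygenase Hmox1 (log2 fold change -0.16) and the transcriptional regulator Id1 (-0.30) were not called. Of 17 genes of peritoneal macrophages only 5 could be tested, and edgeR called 0 higher and 0 lower. At an unadjusted p under 0.05 it placed 1 higher and 3 lower, while DESeq2 called 1 higher and 3 lower and limma-voom 1 and 1. Icam2, an adhesion molecule, stood at 10.1 ± 0.963 against 16.0 ± 1.03 CPM (adjusted p = 0.0630, but 0.0103 by DESeq2). The matrix protein Thbs1, with the opposite sign, stood at 19.8 ± 2.10 against 7.02 ± 4.35 CPM (adjusted p = 0.0618, but 0.00898 by DESeq2 and 0.0312 without Ly6Chi-derived replicate 1).

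Genes that mark macrophages of recent monocyte origin were not lower as a group. Of 16, 11 were tested, of which 4 were higher and 1 lower. The median log2 fold change was 1.04. Cd74, the invariant chain of MHC class II, and Ifitm3, an interferon-induced membrane protein, were among those that rose (log2 fold changes 4.31 and 1.54). The class II chain H2-Ab1 was also called (3.61), but not without the count filter (adjusted p = 0.134). The class II loading factors H2-DMa and H2-DMb1 were not called (-0.49 and -0.21). The fractalkine receptor Cx3cr1 fell, to 50.6 ± 8.61 CPM from 88.6 ± 8.95 CPM (adjusted p = 0.00502). All 18 core macrophage genes were tested, of which 6 were higher and 5 lower. Fcgr1, a high-affinity Fc receptor, had a log2 fold change of 1.96, and the sialic acid receptor Cd33 one of -3.43. The CSF-1 receptor Csf1r rose by 0.51 on the log2 scale. Lysozyme (Lyz2, 0.14) and the gene of PU.1 (Spi1, 0.17) were not called.

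Of 19 relatives of the members by family, 11 were tested, with 1 higher and 2 lower. Stab2, the sister of Stab1, had 50, 67 and 42 counts in TpMo-derived and 0, 0 and 4 in Ly6Chi-derived libraries (edgeR adjusted p = 0.0206), a call lost without any 1 of 5 libraries (adjusted p from 0.0527 to 0.0711), the exception being Ly6Chi-derived replicate 3. Havcr2, a member of the same family as Timd4, had 76.5 ± 7.96 CPM in TpMo-derived and 165 ± 8.32 CPM in Ly6Chi-derived libraries (log2 fold change -1.11, adjusted p = 8.76e-05). Lamp2, a lysosomal membrane protein related to Cd68, averaged 1006 ± 18.3 CPM and 1307 ± 38.8 CPM (log2 fold change -0.38, adjusted p = 9.67e-04). Lamp1 (log2 fold change 0.54) and the scavenger receptor Msr1 (0.08) were not called.

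A list of 12 genes was drawn up as ligands and partners of the members, although not all of them bind a member. Of the 5 tested, 3 rose and 1 fell. C3, whose fragments are bound by the Vsig4 protein, had 40.6 ± 8.38 CPM against 6.34 ± 2.96 CPM (log2 fold change 2.67, edgeR adjusted p = 5.90e-04). Tnfsf12, the cytokine TWEAK that CD163 can take up, fell to 2.77 ± 0.842 CPM from 6.67 ± 0.563 CPM (adjusted p = 0.0409), a call lost without any 1 library other than TpMo-derived replicate 3 (adjusted p from 0.0883 to 0.132). Gas6, a bridging protein for dying cells that binds none of the members, rose (log2 fold change 0.56), as did Ms4a4a (3.84), a membrane protein of macrophages. Mfge8, another bridging protein, was not called (-0.13).

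**Figure D4:**
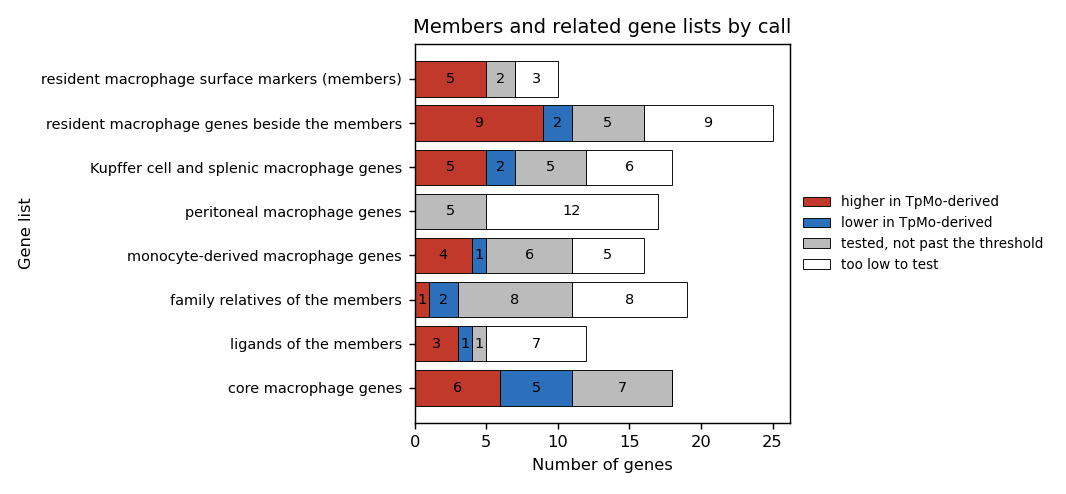
Number of genes called higher (red) or lower (blue) in TpMo-derived macrophages, tested without passing (grey) or too low to test (white), for the 10 members and each related list. The members and the other resident macrophage genes hold the most higher calls relative to lower ones (5 against 0 and 9 against 2). The monocyte-derived list lies close behind (4 against 1), and most of the peritoneal list was too low to test (12 of 17). Among all genes tested, 6.54% were called higher and 5.79% lower.

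Some members are also made by other cells, above all Stab1, Mrc1 and Lyve1 by endothelium of vessels and liver sinusoids. Of 10 endothelial markers, 2 (Tek and Emcn) had no count, and their summed level was 31.8 to 36.3 CPM in TpMo-derived and 7.65 to 24.4 CPM in Ly6Chi-derived libraries. Most of this was Kdr, at 29.97 ± 2.53 against 14.7 ± 8.37 CPM, which did not pass (edgeR adjusted p = 0.0878) but did by DESeq2 (adjusted p = 0.0245) and without Ly6Chi-derived replicate 1 (adjusted p = 0.0112). Stab2 and Pecam1, with 38, 21 and 16 counts against 0, 0 and 2, were called higher. The call of Pecam1 was lost without any 1 of the 6 libraries (adjusted p from 0.0606 to 0.150). Their part in the results on the members was not tested. Of 7 stromal markers 7 had no count, and of 10 neutrophil markers none reached the count filter (summed level 1.11 to 2.75 against 0.218 to 1.49 CPM). The dendritic cell list summed to 112 to 160 against 36.8 to 43.4 CPM, nearly all of it Bst2, which interferon induces in many cells, and Flt3, Clec9a, Cd209a, Ccr7 and Siglech had no count. In the list of T and NK cells Cd4 was called higher (312, 76 and 144 counts against 0, 0 and 10), while Cd3e, Cd3g, Cd8a, Ncr1 and Trac had no count. The B cell, basophil and erythroid lists summed to at most 4.30 CPM in any library, with 4 of 6, 5 of 6 and 3 of 5 markers at 0.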

How the data were processed

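RNA of cultured mouse macrophages was sequenced in 6 libraries. Per the labels' protocols, 2 ng of total RNA (RIN above 7.9) entered each SMART-seq v2 library, and 250 pg of cDNA was tagmented and read as pairs of 51 cycles. Raw counts of reads on each gene are what the authors deposited. Per the file header, featureCounts 1.6.3 made them over GENCODE M22 with no option for pairs, strand or shared reads, so by its defaults mates counted separately, strand was ignored, and multi-mapped reads and reads on several genes were left out. STAR and GRCm38 are named in the submitters' processing notes, with no version for STAR. Exon lengths come from the same deposited table, in bases.

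Symbols came from GENCODE M21 on the same build, where 55394 identifiers matched and 93 did not. Promoter windows are RefSeq's. Genes passed filterByExpr (minimum count 10, minimum total 15), were scaled by TMM and tested with the robust quasi-likelihood test of edgeR 4.0.16 in R 4.3.3, without covariates. Adjusted p-values (Benjamini-Hochberg) span all 13140 genes tested. Log2 fold changes are TpMo-derived over Ly6Chi-derived, and their SE was derived from the F statistic. TPM was computed over all genes of the table. The likeness of profiles used log2 of CPM plus 0.5. DESeq2 1.42.0, limma-voom (limma 3.58.1), other scalings and filters, and each library left out in turn were alternatives. The scripts were tested on simulated counts. The totals per library, 23765773 to 33042094, set the precision, and intervals and limits of single counts cover counting error only: without molecular identifiers, several reads, and both mates of a pair, can stem from 1 molecule. Replicates were numbered in accession order.

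The members and gene lists were chosen with earlier results of these data known. Named were all 10 members and, per list, up to 4 called genes with the smallest p and up to 2 uncalled genes with the highest CPM. For each called member the 2 genes of nearest profile were named too, leaving out clone names and pseudogenes. Genes sharing exons with a member and single markers of other cell types are given beside the result they touch, the last chosen after their values were seen.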

Additional observations from a re-analysis of the deposited data

How the results depend on the processing

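The directions of the 7 members tested held in all 104 values from alternative settings, and 97 of these also stayed on the same side of the threshold. Adgre1, Cd5l and Mrc1 were called in each of 15 alternatives, including the test against a 1.5-fold change, where members called numbered 3 in place of 5, related genes 18 in place of 38 and all genes 317 in place of 1620. In that test Cd163 (log2 fold change 1.68, adjusted p = 0.198) and Stab1 (0.55, adjusted p = 1.00) lost their calls. At an adjusted p under 0.01, Cd163 (1.68) was lost too, and genes called fell to 785. Leaving out 1 library moved the log2 fold change of Cd163 between 1.45 and 2.12 and genes called between 976 and 1492, the count being at most 1074 without TpMo-derived replicate 3 or any 1 Ly6Chi-derived library. Fewer samples enter each of these fits. Over all settings Cd5l ranged from 2.83 to 3.41, Adgre1 from 1.14 to 1.30, Mrc1 from 1.22 to 1.42 and Stab1 from 0.50 to 0.59. For 53 other named genes, 0 of 789 values reversed, 46 lost a call and 16 gained one. Where 5 CPM in 3 libraries was required, Cd163 could not be tested. With library sizes alone, 737 genes were higher and 902 lower, against 859 and 761. No paired analysis was possible because the labels give no replicate numbers. Vsig4, Lyve1 and Timd4 had too few counts to pass the filter at this depth.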

Other observations

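Clec4f, a lectin of Kupffer cells, and Gata6, the transcription factor of peritoneal macrophages, had 0 counts in all 6 libraries, as did Timd2 and Havcr1, relatives of Timd4. Spic, the transcription factor of red pulp macrophages, had 118, 23 and 61 counts in TpMo-derived and 12, 16 and 38 in Ly6Chi-derived libraries, which overlapped, and did not pass (edgeR adjusted p = 0.204). Vcam1, an adhesion molecule that red pulp macrophages carry, had 115, 177 and 84 counts against 0, 0 and 14 (edgeR adjusted p = 0.0206), a call lost without TpMo-derived replicate 2 or 3 or Ly6Chi-derived replicate 1 or 2 (adjusted p from 0.0551 to 0.0743). The transcriptional regulator Id3, from the same list of Kupffer cell and splenic macrophage genes, went the other way. It fell to 73.0 ± 16.0 CPM in TpMo-derived from 123 ± 5.62 CPM in Ly6Chi-derived libraries (log2 fold change -0.75, edgeR adjusted p = 0.00941). Among the genes sharing exons with a member, Nt5dc2 fell where its neighbour Stab1 rose, to 15.8 ± 4.04 CPM from 30.5 ± 3.92 CPM (edgeR adjusted p = 0.0198). Nt5dc2 was no longer called when replicate 3 of the TpMo-derived or replicate 1 or 3 of the Ly6Chi-derived libraries was left out (adjusted p from 0.0589 to 0.0826). These genes were chosen after their values were seen.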
